A study of Mus musculus with 2 samples.

Results

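The guanylate-binding proteins and the immunity-related GTPases that interferon gamma induces were examined in Langerhans cells of mice with and without an intact Il34 gene. The set holds 9 genes: the guanylate-binding protein genes Gbp2, Gbp3, Gbp4, Gbp5, Gbp6 and Gbp7, and the immunity-related GTPase genes Irgm1, Igtp and Iigp1. They were taken by name, and a gene was measured where the array has a probe set annotated with its symbol alone. That holds for 6 of the 9, out of 19937 genes measured this way. Gbp2, Gbp6 and Igtp have no such probe set and are read only by probe sets they share with relatives.

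The samples were sorted Langerin+ Epcam+ Langerhans cells, the antigen-presenting cells of the epidermis, on 2 arrays. One array holds cells of Il34+/LacZ mice, which carry LacZ in 1 copy of Il34, the gene of a CSF1 receptor ligand made by keratinocytes. The other holds cells of Il34LacZ/LacZ mice, which carry LacZ in both copies. All mice were 8 to 12 weeks old and received ultraviolet light for 30 min, and cells were taken 21 days later. Unexposed and wild-type mice were not analysed here, and the labels do not say how many animals gave each RNA.

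Guanylate-binding proteins and immunity-related GTPases are cytosolic enzymes that bind and hydrolyse GTP and assemble on the vacuoles and membranes of intracellular bacteria and parasites. Interferon gamma binds a receptor of IFNGR1 and IFNGR2 chains, the kinases JAK1 and JAK2 then signal to the nucleus, and the induced factor IRF1 helps to switch on the GTPase genes. Within the immunity-related GTPases, Irgm1 and Igtp are regulators that hold effectors such as Iigp1 inactive on the membranes of the cell itself.

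Of the 9 genes, 3 reached the intensity floor used here, and Gbp7 and Irgm1 read lower without Il34. Gbp7 read 1.99-fold lower and Irgm1 1.78-fold lower in Il34LacZ/LacZ, while Gbp4 differed by 1.25-fold. Gbp3, Gbp5 and Iigp1 lay below it on both arrays, where detection could not be judged. The floor is the median intensity of all probe sets over both arrays, 48.7. Of the probe sets shared with relatives, that of Igtp and Irgm2 read lower and that of Gbp2 and Gbp2b higher.

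Each genotype was measured on 1 array, so no difference has a replicate error and no test between genotypes was possible. Differences are in log2(intensity + 16), Il34LacZ/LacZ minus Il34+/LacZ, and folds are on that scale, so they understate changes of dim genes. The error that the values themselves offer is the disagreement between different probe sets of a gene. Its SD was 0.63 on the log2 scale (614 genes), and 0.66, or 1.58-fold, for genes with a mean level between 6 and 7 (107 genes), where Gbp4, Gbp7 and Irgm1 lie. It covers probes, not animals or sorts. In a sorted population, fewer cells that express a gene and less RNA per cell cannot be told apart.

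Markers of the sorted cell type were present on both arrays, and so were those of other cells. All 11 genes listed as Langerhans cell markers were above the floor on both arrays, though some, such as Ptprc, are not particular to these cells. Cd207, the Langerin gene, read 3153.0 and 1852.0 (here and below the first value is Il34+/LacZ), and Epcam 632.9 and 707.7. Csf1r read 2507.3 and 1510.7, and Ptprc 1345.6 and 1078.2. Il34, the targeted gene, read 39.4 and 64.4, and whether its probes lie inside or outside the LacZ insertion is not given, so the labels cannot be checked by it. Of 13 measured T cell and NK cell markers, 10 were above the floor on both arrays, with a summed intensity of 6351.4 and 5952.6. Those below it on both arrays were the NK cell receptor genes Ncr1 (10.1 and 13.1) and Klrb1c (14.8 and 10.9), and Eomes (24.5 and 33.7). Of 12 keratinocyte markers, 11 and 10 were above the floor, with sums of 5033.4 and 919.2. Of 11 monocyte and macrophage markers, 11 were above the floor on both, with sums of 3216.1 and 4653.9. The rise between these sums came mainly from Pf4 (148.1 and 975.3) and C1qa (256.2 and 598.8). Ccr2 (110.8 and 75.4), Plac8 (173.2 and 91.1) and Adgre1 (281.0 and 144.6) read lower in Il34LacZ/LacZ. Of 10 neutrophil markers, 2 and 7 were above the floor, with sums of 420.6 and 1656.0. The neutrophil sums rest mainly on S100a8 (71.9 and 552.1) and S100a9 (103.2 and 698.6), and none of the other 8 markers read above 82.6 on either array. No marker was at 0, but neither was any other probe set, the lowest values of the arrays being 2.2 and 2.32. This does not show that a marker was detected. T cells and NK cells are the usual source of interferon gamma and the GTPases can be induced in many cell types, and the part of each of them in the readings of Gbp7, Irgm1 and their relatives was not tested.

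Gbp7, a guanylate-binding protein that helps to assemble the NADPH oxidase on pathogen vacuoles, read 123.5 with a working copy of Il34 and 54.1 without. The Il34+/LacZ array was well above the floor and the Il34LacZ/LacZ array just above it. The difference was -0.99, larger than the probe set SD of 0.66 for its level. Among the 200 other genes nearest in mean level, 20 read as low or lower, and their median difference was -0.02, with the 5th to 95th percentile from -1.23 to 0.97. Gbp7 therefore lay in the lower part of that range and not outside it.

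Irgm1, the regulator that is needed for resistance to many intracellular pathogens, read 112.5 with a working copy of Il34 and 56.2 without. The order of the arrays was that of Gbp7. The difference was -0.83, and 29 of the 200 genes nearest in level read as low or lower, around a median of 0.01. As with Gbp7, the difference exceeded the probe set SD of 0.66 and lay inside the 5th to 95th percentile of genes of its level, -1.17 to 1.0.

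Gbp4 read 85.0 with 1 working copy of Il34 and 64.9 without, above the floor on both arrays. Its difference of -0.32 was smaller than the probe set SD. Genes of its level had a median difference of 0.16, and 48 of 200 read as low or lower. Against that median Gbp4 read -0.48, also within that SD.

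Gbp3 read 27.5 and 26.3. Gbp5, which promotes assembly of the NLRP3 inflammasome, read 22.4 and 21.9. Iigp1, an effector that coats and disrupts parasite vacuoles, read 13.6 and 15.6. All these values are under the floor of 48.7. Their differences ran from -0.04 to 0.10, against a median of 0.19 over the 7094 genes below the floor on both arrays.

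**Figure D1:**
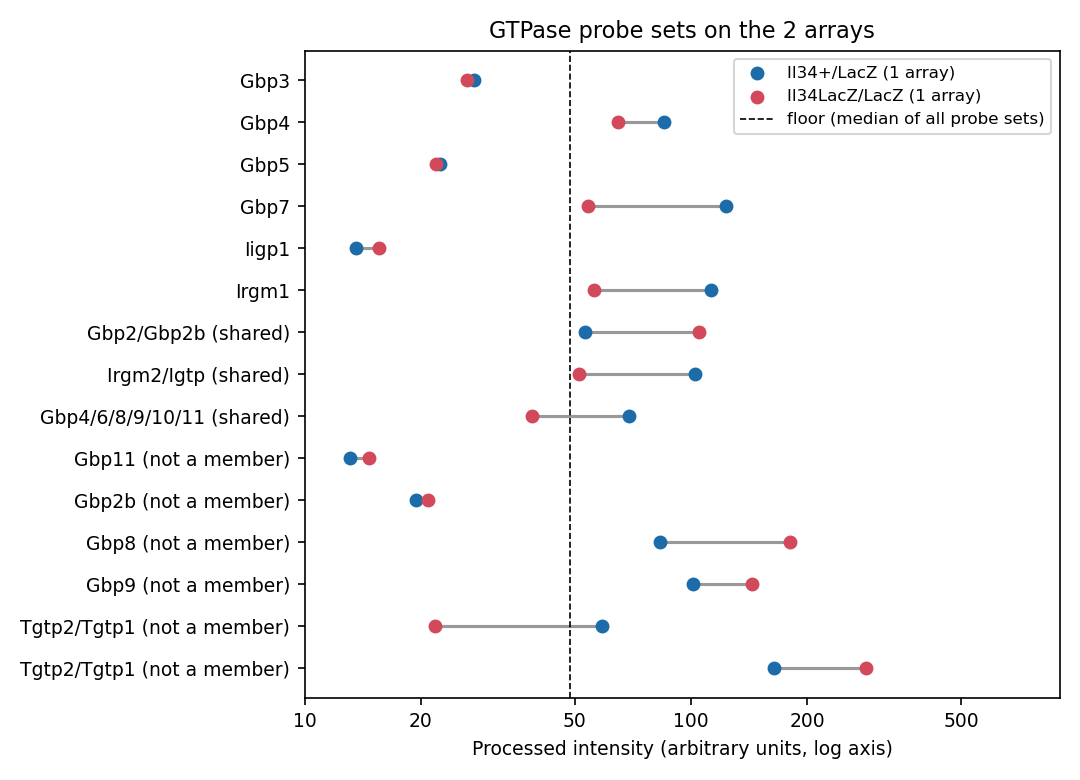
Processed intensity (log axis, arbitrary units) of GTPase probe sets on the Il34+/LacZ array (blue) and the Il34LacZ/LacZ array (red), 1 point per array, with the floor of 48.7 dashed; levels are to be compared along a row, not between rows. Gbp7 (123.5 and 54.1) and Irgm1 (112.5 and 56.2) read lower in Il34LacZ/LacZ, Gbp8 (83.0 and 180.1) higher, and Gbp3, Gbp5 and Iigp1 lay below the floor on both arrays.

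Counted together, 2 of the 3 genes that reached the floor read at least 1.5-fold lower without Il34, and 0 read higher. Over all 12843 genes that reached it, 29.9% met the 1.5-fold limit in the lower direction and 16% in the higher. This background depended on the scaling. With each array centred on its median it was 37.1% lower and 9.13% higher, and after quantile normalization 19.1% and 17.4%. The median difference of the 3 genes was -0.83, beside -0.16 over all genes. With 3 genes, all of them above the floor on both arrays, these figures describe Gbp4, Gbp7 and Irgm1 and not the other 6.

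Differences on these arrays depended on level, so each gene was also set against the 200 genes nearest to it. Measured from the median of those genes, Gbp7 read -0.97, Irgm1 -0.84 and Gbp4 -0.48. By that measure 2 of the 3 passed the 1.5-fold limit downward and 0 upward, where 18% of all genes were lower and 14.1% higher. With a loess trend removed instead, Gbp7 read -1.02, Irgm1 -0.89 and Gbp4 -0.43. At the level of these 3 genes the trend was small, so both measures gave nearly the values as deposited.

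**Figure D2:**
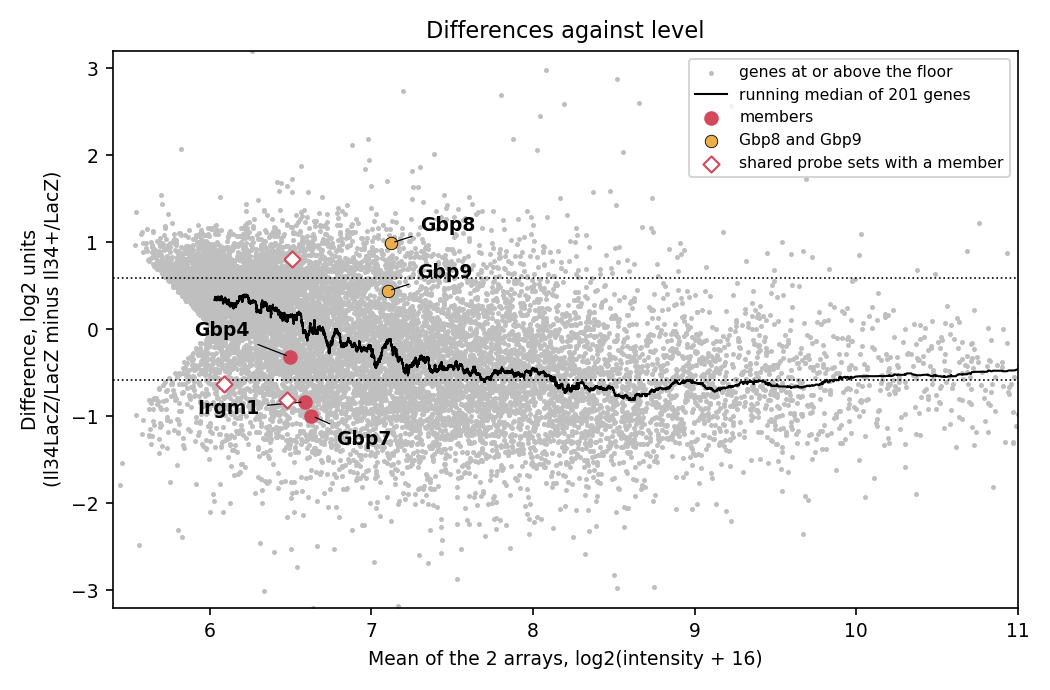
Difference between the arrays (Il34LacZ/LacZ minus Il34+/LacZ, log2 units) against the mean of both arrays in log2(intensity + 16), for genes at or above the floor (grey), the measured GTPase genes (red), Gbp8 and Gbp9 (yellow) and probe sets shared with relatives (open diamonds); dotted lines mark 1.5-fold, and points beyond the axis limits are not shown. Gbp7 (-0.99) and Irgm1 (-0.83) lie below the running median but within the cloud of genes of the same level.

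Shared probe sets were the only reading of the remaining 3 genes, and they did not all point the same way. The probe set of Igtp and Irgm2, neighbouring genes that both encode regulators, read 102.1 and 51.3. It was lower in Il34LacZ/LacZ by a difference of -0.81, with 24 of 200 genes of its level as low or lower, close to Irgm1 in both respects. The probe set of Gbp2 and Gbp2b read 53.0 and 104.9, higher by 0.81, with 179 of 200 genes of its level at or below it. Gbp2b has a probe set of its own, which lay below the floor on both arrays (19.4 and 20.9).

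Gbp6 was read only together with Gbp4, Gbp8, Gbp9, Gbp10 and Gbp11, by a probe set at 68.9 and 38.8. Its Il34LacZ/LacZ value was below the floor, so it was at least 1.31-fold lower. The genes of this cluster that have probe sets of their own went different ways. Gbp8 read 83.0 and 180.1, or 1.98-fold higher, with 194 of 200 genes of its level at or below it. Gbp9, the annotated neighbour of Gbp4, read 101.3 and 143.5, which differ by 0.44, less than the probe set SD. Gbp11 lay below the floor (13.1 and 14.7). Near-identical copies can share probes, so none of the readings of this cluster is certain to belong to its named gene alone.

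The pair Tgtp1 and Tgtp2, effector GTPase genes outside the 9, shows how far probe sets of the same genes can part. Of the 2 probe sets that hold both, the first read 58.8 and 21.7 and the second 163.8 and 283.2. Without Il34 the first was thus at least 1.16-fold lower, but the second was 1.66-fold higher. Gbp7 and Irgm1 have 1 probe set each, so no such disagreement could have been seen for them.

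Other GTPase genes were taken from a list of 20 names, of which 8 have a probe set of their own. Of these 8, 3 reached the floor, and 2 of the 3 read at least 1.5-fold higher and 0 lower. Over all genes, 16% were higher and 29.9% lower. The order is the reverse of that among Gbp4, Gbp7 and Irgm1, with 3 genes on each side. The 2 were Gbp8 and Irgq, a relative of the immunity-related GTPases not known as an interferon gamma effector. Irgq read 42.2 and 84.0 and so at least 1.54-fold higher. Measured from genes of the same level, Gbp8 and Gbp9 passed the limit upward (1.19 and 0.60), and Irgq, at 0.48, did not. Mx1 and Mx2, dynamin-like antiviral GTPases of the type I interferon response, lay below the floor (37.3 and 35.0, and 22.6 and 23.7), as did Irgc1 (31.2 and 48.1). The relatives Gm12185, Gm12250, Gm4841 and Gm4951, not on that list, also have probe sets of their own. All lay below the floor on both arrays, with intensities from 8.5 to 38.3. The shared probe set of 9930111J21Rik1 and 9930111J21Rik2 read 217.1 and 129.6, or 1.60-fold lower, and -0.31 from genes of its level. Of the probe sets that hold Gvin1, the brightest read 135.8 and 134.8. Another read 68.1 and 42.8, at least 1.30-fold lower, and the last lay below the floor. Direction therefore differed between relatives, and the difference between the sets was not tested.

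Promoters of these genes are shown because all the genes respond to the same cytokine and the named motifs are known from genes that it induces. RefSeq promoters (GRCm38.p6), 250 bases before to 50 after the annotated start, were found for 6 of the 9 genes. Gbp4 and Gbp6 had no entry. Promoters of the chromosome of Iigp1 were left out of the selection, so whether Iigp1 has an entry is not given. Capitals mark 2 patterns searched on both strands: TTCNNNGAA, the gamma-activated site, which reads the same on both strands, and GAAANNGAAA, or TTTCNNTTTC on the other strand, the core of the element bound by interferon regulatory factors. The patterns may overlap. The first 2 sequences are the whole window for the genes that read lower, Gbp7 at chr3:142530086-142530385 (plus strand) and Irgm1 at chr11:48871371-48871670 (minus strand), 5′ to 3′ along the gene.
Gbp7: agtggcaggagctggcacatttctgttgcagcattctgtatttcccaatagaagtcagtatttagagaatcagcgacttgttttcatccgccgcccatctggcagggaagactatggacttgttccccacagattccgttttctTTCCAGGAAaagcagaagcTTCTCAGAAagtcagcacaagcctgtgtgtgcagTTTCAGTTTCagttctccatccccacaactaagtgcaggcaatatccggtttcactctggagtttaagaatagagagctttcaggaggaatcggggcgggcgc
Irgm1: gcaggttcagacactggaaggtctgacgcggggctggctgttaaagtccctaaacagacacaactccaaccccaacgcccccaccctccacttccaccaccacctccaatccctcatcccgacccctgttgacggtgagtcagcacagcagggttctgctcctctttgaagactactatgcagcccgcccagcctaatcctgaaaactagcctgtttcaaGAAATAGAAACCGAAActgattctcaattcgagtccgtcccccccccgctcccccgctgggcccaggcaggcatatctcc

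The Gbp7 window holds 2 gamma-activated site matches, beginning 106 and 87 bases before the start, and 1 interferon regulatory factor match at 53. The Irgm1 window holds 0 gamma-activated site matches and 2 overlapping interferon regulatory factor matches, at 30 and 24 bases before the start. The genes that read lower thus do not share the first pattern in these windows.

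For Igtp, Irgm2, Gbp2 and Gbp3, the 120 bases before the start carry all the matches of the window. They lie at chr11:58199436-58199555 for Igtp, chr11:58214857-58214976 for Irgm2, chr3:142620543-142620662 for Gbp2 and chr3:142559924-142560043 for the first of the annotated starts of Gbp3, all on the plus strand.
Igtp: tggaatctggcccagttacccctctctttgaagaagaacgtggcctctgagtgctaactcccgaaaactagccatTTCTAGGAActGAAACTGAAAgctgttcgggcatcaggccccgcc
Irgm2: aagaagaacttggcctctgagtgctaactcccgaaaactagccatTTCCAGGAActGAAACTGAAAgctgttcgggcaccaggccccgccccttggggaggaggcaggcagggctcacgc
Gbp2: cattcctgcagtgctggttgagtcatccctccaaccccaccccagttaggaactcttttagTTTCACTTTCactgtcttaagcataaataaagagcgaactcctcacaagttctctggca
Gbp3: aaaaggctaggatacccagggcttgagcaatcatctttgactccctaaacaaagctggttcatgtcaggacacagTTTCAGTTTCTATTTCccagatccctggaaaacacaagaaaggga

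The interferon regulatory factor pattern was present for all 6 genes with a window, and the gamma-activated site pattern for 3 of them, Gbp5, Gbp7 and Igtp. Over all 32851 RefSeq promoters of this length, 3.44% hold the first and 8.30% the second. Gbp2, whose shared probe set read higher, and Gbp3, below the floor, hold the same interferon regulatory factor pattern as Gbp7, so its presence did not separate genes that read lower from the others. Igtp and Irgm2 carry both patterns with 2 bases between them. That arrangement was noticed after the matches were seen and was then counted, and it occurs in 5 promoters in all (0.0152%): Igtp, Irgm2, Tgtp1, Tgtp2 and Gm12185. A match describes letters only and does not show that a factor bound there.

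**Figure D3:**
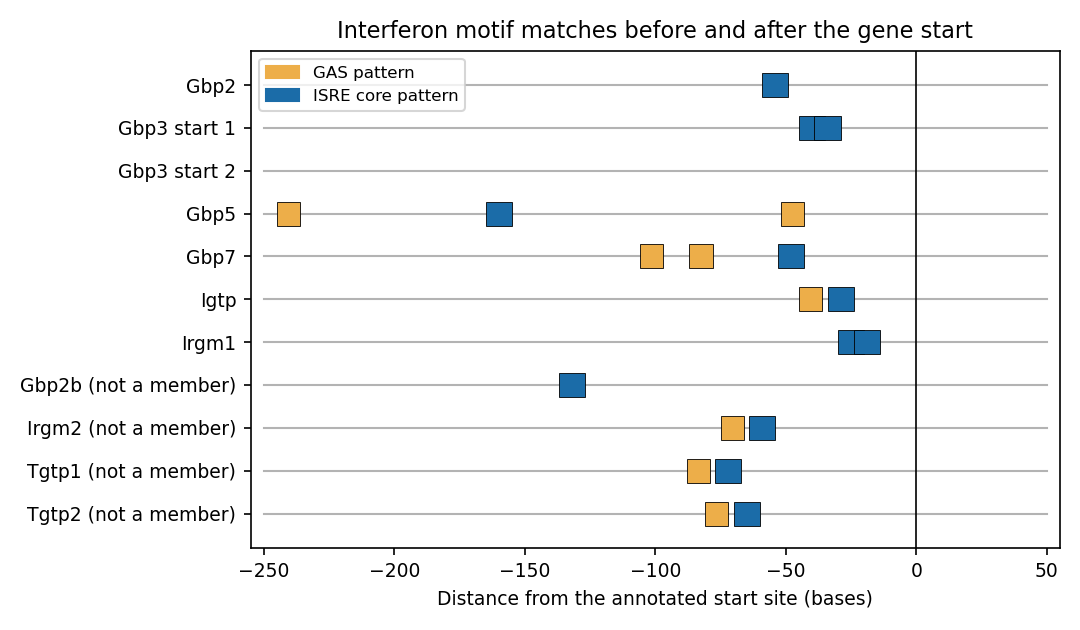
Matches to the gamma-activated site pattern (yellow) and the interferon regulatory factor pattern (blue) along RefSeq promoter windows, with distance from the annotated start in bases on the horizontal axis and 1 row per start site. All 6 genes of the set with a window hold the interferon regulatory factor pattern at 1 start, and Igtp, Irgm2, Tgtp1 and Tgtp2 hold both patterns with 2 bases between them.

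The receptor and its signalling genes, listed with earlier results of these data known, gave 14 measured genes, all above the floor. In Il34LacZ/LacZ 8 of the 14 passed the 1.5-fold limit downward and 0 upward, and the median difference was -0.72. Over all genes, 29.9% were lower and 16% higher. The ligand gene Ifng read 498.4 and 395.7, and its difference of -0.32 did not exceed the probe set SD. Ifngr1, the ligand-binding chain, read 545.4 and 256.4, or 2.06-fold lower, and Ifngr2, the signalling chain, 635.9 and 911.2, or 1.42-fold higher. The kinase genes Jak1 (891.0 and 359.5) and Jak2 (495.7 and 192.0) were 2.42-fold and 2.46-fold lower.

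Among the transcription factors, Irf1, which drives many GTPase genes, read 291.8 and 187.7, or 1.51-fold lower, while its second probe set differed by -0.16. Irf2, a factor that competes with IRF1 for its sites, was 1.99-fold lower, and Irf8 and Batf2 differed by -0.30 and -0.05. Among the inhibitors of the pathway, Pias1 read 311.0 and 65.1, or 4.03-fold lower. The phosphatase genes Ptpn2 and Ptpn11 were 1.79-fold and 1.80-fold lower, but the second probe set of Ptpn2 differed by 0.03. The feedback inhibitors Socs1 and Socs3 differed by 0.08 and -0.40, but the second probe set of Socs3 differed by -1.08. Both activators and inhibitors of the pathway were thus among the genes that read lower.

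Genes of the level of these signalling genes also read lower, and against them the list was mixed. Measured from genes of the same level, 4 of the 14 were lower (Jak1, Jak2, Ptpn2 and Pias1) and 2 higher (Ifngr2 and Socs1). The median was -0.17, and 18% of all genes were lower and 14.1% higher by that measure. Ptpn2 counts here by its brighter probe set only. Ifngr1 read -0.23 and Irf1 -0.11 by that measure, both within the probe set SD, and Ifngr2 read 1.17.

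Other interferon gamma targets were found on both sides as well. Of 20 genes that reached the floor, from a list of 25 names, 10 passed that limit downward and 3 upward, and the median was -0.59. The upward count includes Upp1, a uridine phosphorylase gene below the floor on the Il34+/LacZ array and thus shown only to be at least 1.27-fold higher. Against genes of the same level the median was -0.03, with 7 lower and 2 higher. The 2 higher were Cxcl10 (1.82) and Rnf213 (2.24). Rnf213 is in both upward counts by its brighter probe set only, since its other probe set differed by -1.46. The shares of all genes were 29.9% lower and 16% higher, or 18% and 14.1% against genes of the same level. The chemokine gene Cxcl9, induced mainly by interferon gamma, read 257.5 and 64.1, or 3.41-fold lower. Cxcl10, which type I interferon also induces, read 274.8 and 616.6, or 2.18-fold higher. Psme2, a proteasome activator subunit, was 3.12-fold lower and Tap1, a peptide transporter chain, 3.01-fold lower.

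Rnf213, a large ubiquitin ligase that targets intracellular pathogens, was 3.01-fold higher by its brighter probe set, but its other probe set differed by -1.46. Nlrc5, the activator of MHC class I genes, has 19 probe sets at or above the floor, whose differences ran from -2.92 to 0.92. These spreads are wider than the differences of Gbp7 and Irgm1.

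Type I interferon genes, a second route to overlapping targets, had a median of -0.19. Of 20 genes, 3 passed the limit downward and 5 upward, or 3 and 6 from genes of the same level. The shares of all genes were 29.9% lower and 16% higher, or 18% and 14.1% by the latter measure. Rsad2 read 32.5 and 139.4, at least 2.40-fold higher, and Oasl1, of the oligoadenylate synthetase-like proteins, 107.0 and 281.7, or 2.42-fold higher. Ifit1, an inhibitor of viral translation, read 40.2 and 110.7, at least 1.96-fold higher. Irf9, the DNA-binding subunit of the type I interferon factor ISGF3, was 3.07-fold lower, and Ifnar2, a receptor chain, 2.14-fold lower.

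**Figure D4:**
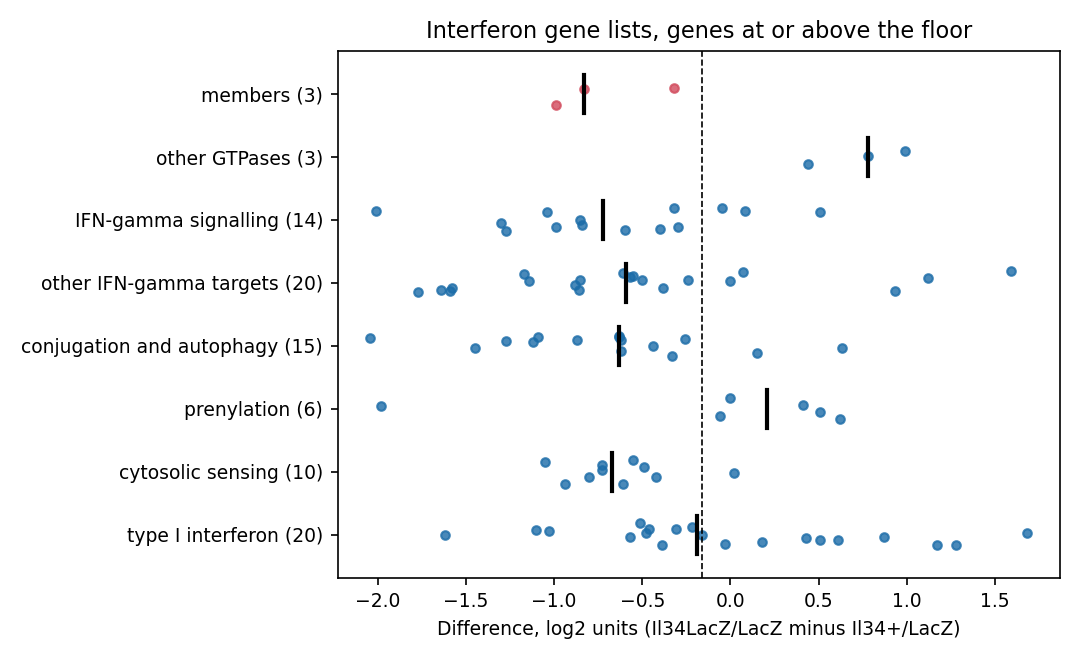
Difference between the arrays (Il34LacZ/LacZ minus Il34+/LacZ, log2 units) of the measured GTPase genes (red) and of the genes of each list at or above the floor (blue, number in brackets); 1 point is 1 gene, black bars are list medians and the dashed line is the median of all 12843 genes, -0.16. The measured GTPase genes have a median of -0.83, the interferon gamma signalling genes one of -0.72 and the type I interferon genes one of -0.19.

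Partners of the GTPases were read from further lists. The ubiquitin-like conjugation system of autophagy directs the GTPases to their target membranes. Its genes were listed together with the autophagy initiation genes Becn1 and Ulk1, the cargo receptor gene Sqstm1 and the ubiquitin ligase genes Traf6 and Trim21. Of this mixed list 15 genes reached the floor, 10 of them past the 1.5-fold limit downward and 1 upward, and the median was -0.63. The downward count includes Atg5, below the floor in Il34LacZ/LacZ and thus shown only to be at least 1.43-fold lower. Against genes of the same level the median was -0.15, with 7 lower and 2 higher. Over all genes the shares were 29.9% lower and 16% higher, or 18% and 14.1% against genes of the same level. Gabarapl2, a conjugated protein needed for the uniform spread of these GTPases in the cytosol, read 750.1 and 170.7, or 4.10-fold lower, and its second probe set differed by -0.75. Its relatives Gabarapl1 and Gabarap were 2.41-fold and 2.17-fold lower, and Becn1 was 2.74-fold lower.

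Prenylation anchors some guanylate-binding proteins in membranes, and its 6 enzyme genes had a median of 0.21. Zmpste24, a protease that trims prenylated proteins, was 3.96-fold lower by its brighter probe set, and was the 1 gene of the 6 past the limit downward. Fntb, a subunit of farnesyltransferase, read 41.1 and 71.9. Its difference of 0.62 was past the limit upward, but its Il34+/LacZ value was below the floor, so it is shown only to be at least 1.36-fold higher. The upward count of 1 was 0 with the loess trend removed and 2 after quantile normalization or with a pseudocount of 1. Over all genes as deposited, 29.9% were lower and 16% higher. Fnta, the partner subunit of Fntb, and Pggt1b, of another prenyltransferase, differed by 0.51 and 0.41.

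Cytosolic sensing genes that act with or after the GTPases had 6 of 10 past the limit downward and 0 upward, with a median of -0.67, where 29.9% of all genes were lower. Measured from genes of the same level, 2 of the 10 were lower, near the 18% of all genes, and the median was -0.38. The 2 were Naip2 and Casp4. Casp4 read 56.3 and 33.3, a mean level below the floor, so no same-level value is given for it alone. After quantile normalization, and with the loess trend removed, 3 of the 10 were lower. Naip2, a sensor of bacterial proteins, was 1.91-fold lower, and read -1.10 from genes of its level. The inflammasome gene Nlrp3 and the DNA sensor gene Aim2 were 2.07-fold and 1.75-fold lower as deposited. From genes of their level they read -0.41 and -0.24, both inside the 1.5-fold limit. Il1b read 1773.6 and 1795.2.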

How the data were processed

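The table holds 34760 probe sets of an Affymetrix mouse gene array for 2 arrays, with RNA labelled from 2 ng. Each value is a processed intensity as the authors deposited it, taken as linear from its range. For background correction, probe summary and scaling, methods were not given in the sources used here. 448 probe sets have identical values on both arrays. Median intensity was 45.2 in Il34+/LacZ and 51.9 in Il34LacZ/LacZ, and the number of arrays limits the precision. The platform annotation gave 1 symbol to 21640 probe sets, several to 1321 and none to 11799, and the RefSeq table held 19918 of 19937 symbols. A gene was its brightest probe set with 1 symbol, used if either array reached the floor. Differences were taken after log2(intensity + 16), with no test. Genes of the same level were the 200 nearest in mean log2 level. Same-level values of single genes are given only where the mean reaches the floor. Same-level counts and medians include every gene that reached the floor on either array. A loess trend (fraction 0.3) and other scalings, floors, pseudocounts and probe set rules were alternatives. The calculation of same-level differences was tested on simulated data.

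The named genes were the 9 GTPase genes, all measured genes of the lists of other GTPases and of interferon gamma signalling, up to 4 genes furthest apart of each further list, and Il34, Cd207, Epcam, Csf1r and Ptprc. Further genes outside this rule were named after their values were seen: Gm12185, Gm12250, Gm4841, Gm4951, Cxcl10, Upp1, Nlrc5, Ifnar2, Atg5, Casp4, Il1b, S100a8, S100a9, Ncr1, Klrb1c, Eomes, Pf4, C1qa, Ccr2, Plac8 and Adgre1. So were the relatives outside the 9 that only shared probe sets read. Genes, lists and thresholds were chosen with earlier results of these data known. Python 3.11.15, numpy 2.4.6, pandas 2.3.3 and statsmodels 0.14.6 were used.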

Additional observations from a re-analysis of the deposited data

How the results depend on the processing

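The differences of the 6 measured GTPase genes stayed within the probe set SD of their main values in all 42 comparisons with an alternative, Gbp7 running from -1.17 to -0.67 and Irgm1 from -0.99 to -0.55. Among these, the mean of all probe sets and the added shared probe sets could not change them, since each gene has 1 probe set. For the same reason the mean of all probe sets could not change the counts or median difference of the set. With a pseudocount of 64, 1 gene was at least 1.5-fold lower in place of 2, since Irgm1 then read -0.55. Adding the shared probe sets of Gbp2, Gbp6 and Igtp, chosen after seeing the data, gave 4 lower and 1 higher of 6. Without a floor the median difference was -0.18, or -0.42 from genes of the same level, because the 3 dim genes entered, and that of other GTPases 0.26. At a floor of the 75th percentile no GTPase gene of the set was left. The median over all genes was -0.16 as deposited, -0.31 with arrays centred, 0.05 after quantile normalization and 0.03 with the loess trend removed. Quantile normalization and loess moved the medians of interferon gamma signalling to -0.33 and -0.22, of other targets to -0.11 and -0.02, of conjugation and autophagy genes to -0.27 and -0.18, and of sensing genes to -0.46 and -0.42. The type I interferon median was -0.03 with loess and 0.11 at the 75th percentile floor, where the prenylation median, over 2 genes, was -0.99. Of 69 alternatives for the counts of the set and for all medians, 52 gave the same result by the spread or the 1.5 times rule, and 0 reversed a called value. No paired analysis was possible because each genotype has 1 array. Dim signal limits Gbp3, Gbp5 and Iigp1.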
